A study of Arabidopsis thaliana with 12 samples.

Results

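Expression of potassium channel and transporter genes was followed in whole Arabidopsis thaliana seedlings that differed in genotype and in exposure to NaCl. The genes were chosen by locus: the channel genes AKT1 (AT2G26650), AKT2 (AT4G22200), KAT1 (AT5G46240), KAT3 (AT4G32650, also called KC1), SKOR (AT3G02850) and GORK (AT5G37500), and the carrier genes HAK5 (AT4G13420) and KUP6 (AT1G70300). Of these 8 loci, 7 were measured, each by 1 probe, among 26799 genes or unnamed probes tested; AKT2 had no probe under its name in the annotation used and is not analysed here. There were 4 groups of 3 one-colour arrays: SvGRP seedlings at 150 mM NaCl, SvGRP seedlings at 0 mM, wild-type (WT, Col-0) seedlings at 150 mM and WT seedlings at 0 mM. SvGRP names a transformant whose added gene comes from Sporobolus virginicus, a grass that tolerates salt, and encodes an RNA-binding protein rich in glycine, and the study asks how its gene expression under salt stress compares with that of WT. The promoter that drives the transgene and the number of independent lines are not given in the sources used here. In all 4 groups seedlings grew for 5 days from germination on dilute MS medium, were moved to medium with or without NaCl for 24 h, and are labelled as 6 days old.

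Potassium is the main inorganic cation of plant cells, and its uptake competes with that of sodium when the medium is saline. Shaker-type channels let it pass down its electrochemical gradient. AKT1 takes up potassium in root epidermis and root hairs, KAT1 admits it into guard cells, and KAT3 is a silent subunit that forms no working channel alone but joins AKT1 and KAT1 and alters their gating. The outward channel SKOR releases potassium from the root stele into the xylem sap on its way to the shoot, and its close relative GORK lets it out of guard cells, where this closes stomata, and out of root epidermis. Carriers of the KUP/HAK/KT family move it against its gradient. HAK5 is the high-affinity uptake carrier of roots, known for its induction when potassium runs short, and KUP6 takes part in osmotic adjustment downstream of abscisic acid.

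The level of a gene is given here as the log2 of its processed signal minus the log2 of the array's 75th percentile, so that 0 is the 75th percentile of all probes. Levels are set side by side only for the same probe, never between genes. A change is the difference of 2 group means on that log2 scale, followed by ± its standard error with n = 3 arrays per group, and it is called where limma's p, adjusted by Benjamini-Hochberg over all 26799 tests, is under 0.05. Median signals of the arrays ran from 676 to 1013, with 75th percentiles of 3641 to 5676. Precision is limited by having 3 arrays a group. Arrays of a group correlated across genes with r between 0.990 and 0.997. The labels do not say whether replicates were grown separately, so p-values reflect only how these samples vary, and that variation may be technical. The 12 arrays lay on 3 slides of 4. On slide 1 were all of WT at 0 mM and WT at 150 mM replicate 1, and slide 2 held WT at 150 mM replicates 2 and 3 with SvGRP at 0 mM replicates 1 and 2. On slide 3 were SvGRP at 0 mM replicate 3 and all of SvGRP at 150 mM. A fit with slide as a term therefore gives the salt changes within slide 3 (SvGRP) or slide 1 (WT). In SvGRP this sets 1 array at 0 mM (replicate 3) against 3 at 150 mM. In WT it sets 1 array at 150 mM (replicate 1) against 3 at 0 mM. The same fit leaves the genotype comparisons to rest on the single arrays that link the slides. Its values are given beside most of the changes of the 7 genes. Both tissues of a whole seedling were present on every array. The summed signal of 4 leaf markers, in multiples of the array's 75th percentile, was 228 to 248 in SvGRP at 150 mM and 288 to 303 in SvGRP at 0 mM. It was 234 to 241 in WT at 150 mM and 325 to 368 in WT at 0 mM. Its strongest terms, CAB1 (529036 to 573388) and RBCS1A (448084 to 540886), varied little in unscaled signal. Differences of the leaf sum between groups therefore partly follow the 75th percentile. The sum of 3 root markers, nearly all of it PYK10, lay between 45.9 and 80.3. The root iron transporter gene IRT1 was below the 20th percentile on all arrays at 150 mM.

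Relative to the 75th percentile, salt changed nearly all of the measured genes in both genotypes, in opposite directions for different members. HAK5 and GORK rose, SKOR, KAT1 and AKT1 fell, and KAT3 fell but not in WT when scaled to spike-in probes. Spike-in scaling also left AKT1 (-0.26, adjusted p = 0.058) and KUP6 (-0.04, adjusted p = 0.85) uncalled in WT. Under that scaling the median change of all genes was 0.18 for salt in SvGRP and 0.41 for salt in WT. It was 0.17 for SvGRP over WT at 150 mM and 0.34 at 0 mM. In SvGRP 2 of 7 genes were higher at 150 mM, where 31.0% of all genes were, and 4 of 7 were lower, where 37.8% were (68.8% in either direction). In WT 2 of 7 were higher against 33.1% of all genes, and 5 of 7 were lower against 30.2% (63.3% in either direction), KUP6 being the one not called in SvGRP. So many genes changed in these seedlings that the counts by themselves say little about the potassium genes. In size, 3 of the 7 (SKOR, HAK5 and KAT1) changed at least 2-fold in each genotype. The 1 that rose so far compares with 9.14% of all genes in SvGRP and 8.68% in WT, and the 2 that fell so far with 10.9% in SvGRP and 6.21% in WT. The median change was -0.53 for the 7 genes and -0.07 for all genes in SvGRP, and -0.41 and 0.04 in WT. With slide in the fit 2 genes were higher (25.3% of all genes) and 4 lower (28.8%) in SvGRP, and 2 were higher (22.5%) and 3 lower (23.2%) in WT. The plot of each array shows these shifts.

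**Figure D1:**
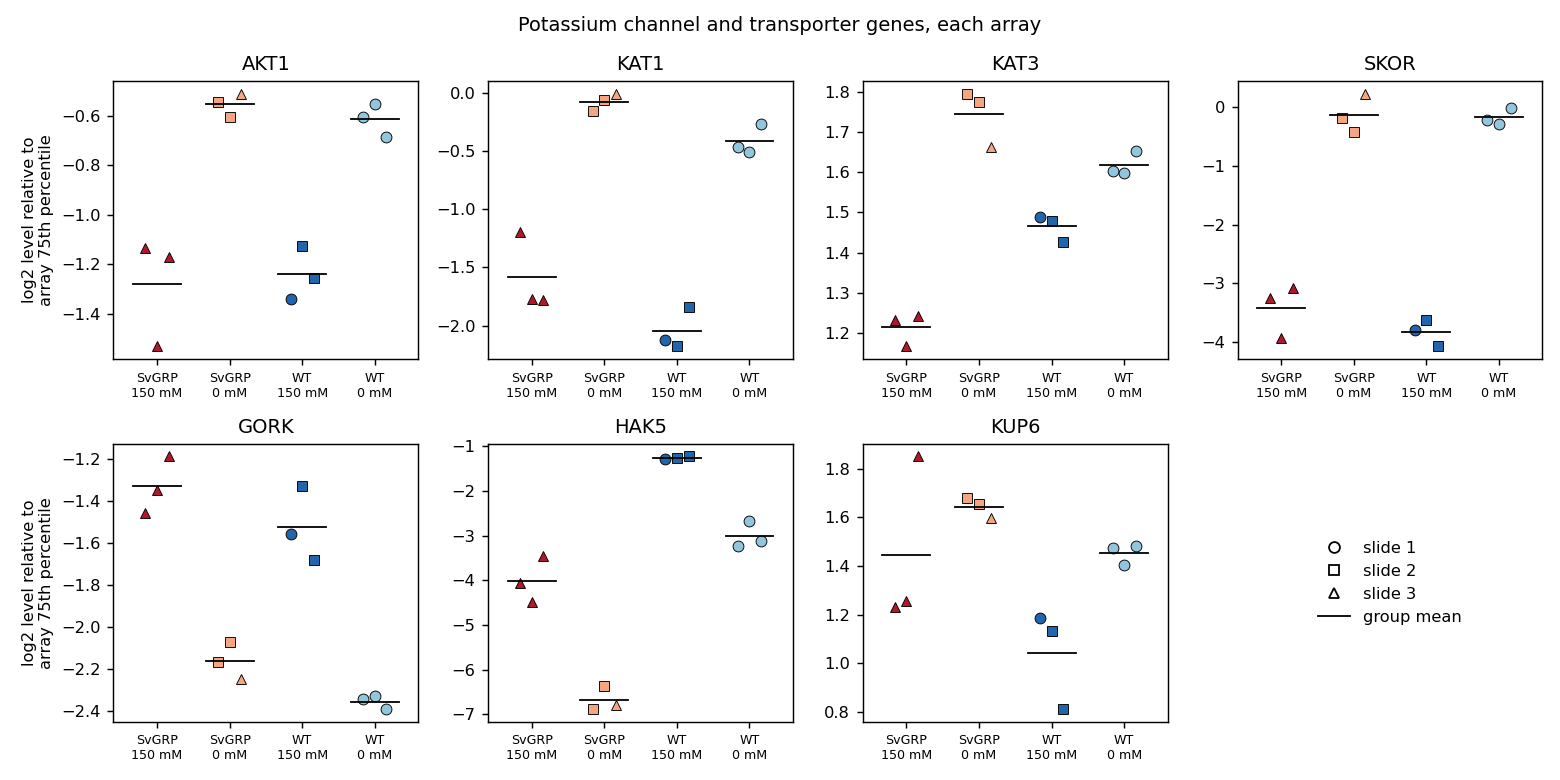
Level (log2 relative to the array's 75th percentile) of the 7 measured genes on every array, with SvGRP at 150 and 0 mM NaCl left of WT at 150 and 0 mM. Each point is 1 array, its shape gives the slide and the bar is the mean of 3 arrays. SKOR lies between -0.43 and 0.22 without salt and between -4.07 and -3.08 with salt, and HAK5 lies lower in SvGRP than in WT at both NaCl levels.

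AKT1, the main inward channel of the root surface, was at -1.13, -1.53 and -1.17 in SvGRP at 150 mM and at -0.55, -0.60 and -0.51 in SvGRP at 0 mM. In WT it was at -1.34, -1.13 and -1.26 at 150 mM and at -0.61, -0.55 and -0.69 at 0 mM. All 6 salt arrays lay below all 6 arrays without salt, and the genotypes overlapped at either NaCl level. AKT1 fell by 0.73 ± 0.10 in SvGRP (adjusted p = 1.4e-04; -0.77 with slide) and by 0.63 ± 0.10 in WT (adjusted p = 4.5e-04; -0.73 with slide). Scaled to spike-in probes instead of the 75th percentile, the WT change was -0.26 with an adjusted p of 0.058. The salt changes of AKT1 differed by -0.10 between SvGRP and WT, with a 95% interval from -0.42 to 0.22 (-0.04 with slide).

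KAT1, the guard cell inward channel, was at -1.20, -1.77 and -1.78 in SvGRP at 150 mM, against -0.16, -0.07 and -0.01 in SvGRP at 0 mM. It was at -2.12, -2.18 and -1.84 in WT at 150 mM, against -0.47, -0.51 and -0.27 in WT at 0 mM. Salt and control arrays were far apart in both genotypes, and SvGRP lay slightly above WT at each NaCl level without overlap. KAT1 fell by 1.51 ± 0.16 in SvGRP, or 2.84-fold (adjusted p = 1.7e-05; -1.57 with slide), and by 1.63 ± 0.16 in WT, or 3.10-fold (adjusted p = 1.7e-05; -1.70 with slide). Of 24543 genes above the 20th percentile on all arrays, 4.22% fell as far in SvGRP and 1.76% in WT.

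Most but not all markers of the guard cell lineage moved in the same direction as KAT1. Of 5 such genes 4 fell and 0 rose under salt in SvGRP by limma, against 37.8% and 31.0% of all genes. At an unadjusted p under 0.05 also 0 rose. In WT 4 fell and 1 rose, against 30.2% and 33.1%. The 1 that rose was SLAC1, from between -3.848 and -3.73 at 0 mM to between -3.485 and -3.321 at 150 mM. In SvGRP the SLAC1 arrays with and without salt overlapped. These 5 genes include markers of stomatal precursors. Their summed level was 0.609 to 0.775 in SvGRP at 150 mM, against 1.56 to 1.82 in SvGRP at 0 mM, and 0.665 to 0.776 in WT at 150 mM, against 1.13 to 1.48 in WT at 0 mM. None was at 0. Their part in the fall of KAT1 was not tested, and in RNA of whole seedlings fewer cells of a type and less RNA per cell cannot be told apart.

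KAT3, the silent partner subunit, was at 1.23, 1.17 and 1.24 in SvGRP at 150 mM, against 1.80, 1.77 and 1.66 in SvGRP at 0 mM. It was at 1.49, 1.48 and 1.43 in WT at 150 mM, against 1.60, 1.60 and 1.65 in WT at 0 mM. On this scale the 4 groups did not overlap and stood in the order SvGRP at 0 mM, WT at 0 mM, WT at 150 mM and SvGRP at 150 mM, although neighbouring means were only 0.13 to 0.25 apart. Relative to the 75th percentile KAT3 fell by 0.53 ± 0.05 in SvGRP (adjusted p = 8.3e-06; -0.45 with slide, adjusted p = 0.0010) and by 0.15 ± 0.05 in WT (adjusted p = 0.020), a call that ended when slide was a term (-0.13, adjusted p = 0.15) and without WT at 0 mM replicate 3 (adjusted p = 0.070) or WT at 150 mM replicate 3 (adjusted p = 0.061). The WT change turned to 0.22 under spike-in scaling (adjusted p = 0.088), where the median of all genes lay at 0.41. Its unscaled signal in WT was 13883 to 14208 at 150 mM, against 11013 to 12843 at 0 mM.

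The response of KAT3 was the only one of the 7 whose difference between genotypes was called. The change in SvGRP minus that in WT was -0.38 ± 0.07 (adjusted p = 0.014), and it remained called without any 1 array (highest adjusted p = 0.044). With slide the difference was -0.32 (adjusted p = 0.22), and it was -0.50 with spike-in scaling (adjusted p = 0.070). For this interaction 0 of 7 genes were called higher by limma, against 2.52% of all genes, and 1 of 7 lower, against 6.45% (8.97% in either direction). With slide in the fit 0 of 7 were called, against 0.515%. At an unadjusted p under 0.05, 1 was higher (HAK5) and 1 lower.

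SKOR, which loads potassium into the xylem, had the largest salt change of the 7 genes. It was at -3.25, -3.93 and -3.08 in SvGRP at 150 mM, against -0.19, -0.43 and 0.22 in SvGRP at 0 mM. It was at -3.80, -3.62 and -4.07 in WT at 150 mM, against -0.22, -0.29 and -0.03 in WT at 0 mM. The salt arrays lay about 3 log2 units below the others, and the genotypes overlapped at both NaCl levels. SKOR fell 9.76-fold in SvGRP (-3.29 ± 0.23, adjusted p = 1.8e-06; -3.64 with slide) and 12.6-fold in WT (-3.65 ± 0.23, adjusted p = 2.2e-06; -3.62 with slide). Among the 24543 genes above the 20th percentile on all arrays, 63 fell as far in SvGRP and 20 in WT. The salt change of SvGRP minus that of WT was 0.37 with a 95% interval from -0.37 to 1.10 (-0.02 with slide). Even on salt its lowest array stood 11.2 times above the array's 20th percentile.

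Markers of the root stele and xylem gave a mixed picture beside SKOR. Of 6 such genes 2 rose and 2 fell under salt in each genotype. The shares of all genes were 31.0% and 37.8% in SvGRP and 33.1% and 30.2% in WT. The median change of the 6 markers was -0.22 in SvGRP and -0.09 in WT, far smaller than that of SKOR. The phosphate exporter gene PHO1, also of the root stele, fell by 1.95 in SvGRP and by 1.68 in WT (-2.03 and -1.75 with slide). PHO1 had the largest fall of the 6, while XCP2, the largest term of their sum, was not lower in mean at 150 mM. Their summed level was 9.91 to 11.2 in SvGRP at 150 mM, against 11.8 to 12.9 in SvGRP at 0 mM. In WT it was 9.91 to 11.8 at 150 mM, against 12.3 to 13.3 at 0 mM. Of the 6 markers none stood for this sum alone. None was at 0. Of 4 phloem markers 2 rose and 2 fell in SvGRP and 2 rose and 1 fell in WT, and of 2 endodermis markers 1 fell in SvGRP. The part of any of these in the fall of SKOR was not tested.

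GORK, the other outward channel, moved in the direction opposite to SKOR. It was at -1.46, -1.35 and -1.19 in SvGRP at 150 mM, against -2.17, -2.07 and -2.24 in SvGRP at 0 mM. It was at -1.56, -1.33 and -1.68 in WT at 150 mM, against -2.34, -2.33 and -2.39 in WT at 0 mM. All salt arrays lay above all arrays without salt. GORK rose by 0.83 ± 0.10 in SvGRP, or 1.78-fold (adjusted p = 3.7e-05; 0.91 with slide), and by 0.83 ± 0.10 in WT, also 1.78-fold (adjusted p = 5.3e-05; 0.80 with slide). The difference between these changes had a 95% interval from -0.30 to 0.30 (0.12 with slide). The summed level of the guard cell markers was lower at 150 mM in both genotypes, and its relation to GORK was not tested.

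HAK5, the high-affinity uptake carrier, differed most between the genotypes. It was at -4.06, -4.50 and -3.46 in SvGRP at 150 mM, against -6.89, -6.38 and -6.80 in SvGRP at 0 mM. It was at -1.28, -1.27 and -1.23 in WT at 150 mM, against -3.24, -2.68 and -3.13 in WT at 0 mM. The groups did not overlap, and SvGRP on salt lay below WT without salt. In unscaled signal the arrays read 252 to 486 in SvGRP at 150 mM, 40.6 to 54.6 in SvGRP at 0 mM, 2041 to 2222 in WT at 150 mM and 429 to 569 in WT at 0 mM. In SvGRP at 0 mM this was only 1.75 to 2.25 times the array's 20th percentile, so the gene was close to the dim end of the measured range there.

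Salt raised HAK5 in both genotypes, by 2.68 ± 0.25 or 6.41-fold in SvGRP (adjusted p = 8.3e-06; 2.79 with slide) and by 1.76 ± 0.25 or 3.38-fold in WT (adjusted p = 1.7e-04; 1.74 with slide). The rise in SvGRP exceeded that in WT by 0.92 ± 0.35, with a 95% interval from 0.15 to 1.70, but it did not pass the threshold over all genes (adjusted p = 0.12); with slide the excess was 1.05 (adjusted p = 0.48).

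KUP6, the osmotic adjustment carrier, had the smallest salt change of the 7 genes in SvGRP, where its arrays at 150 mM spread widely. It was at 1.23, 1.26 and 1.85 in SvGRP at 150 mM, against 1.68, 1.66 and 1.60 in SvGRP at 0 mM. It was at 1.19, 1.13 and 0.81 in WT at 150 mM, against 1.48, 1.41 and 1.48 in WT at 0 mM. In WT the arrays at 150 mM lay below those at 0 mM without overlap. In SvGRP replicate 3 at 150 mM stood above all control arrays and the other two below, and the change was -0.20 ± 0.16 (adjusted p = 0.28), or -0.40 without that array (adjusted p = 0.0069). In WT the change of -0.41 ± 0.16 was called (adjusted p = 0.041), but not when slide was a term (-0.27, adjusted p = 0.38), under spike-in scaling (-0.04, adjusted p = 0.85) or when any of 8 arrays was left out (up to an adjusted p of 0.15, for WT at 150 mM replicate 3).

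**Figure D2:**
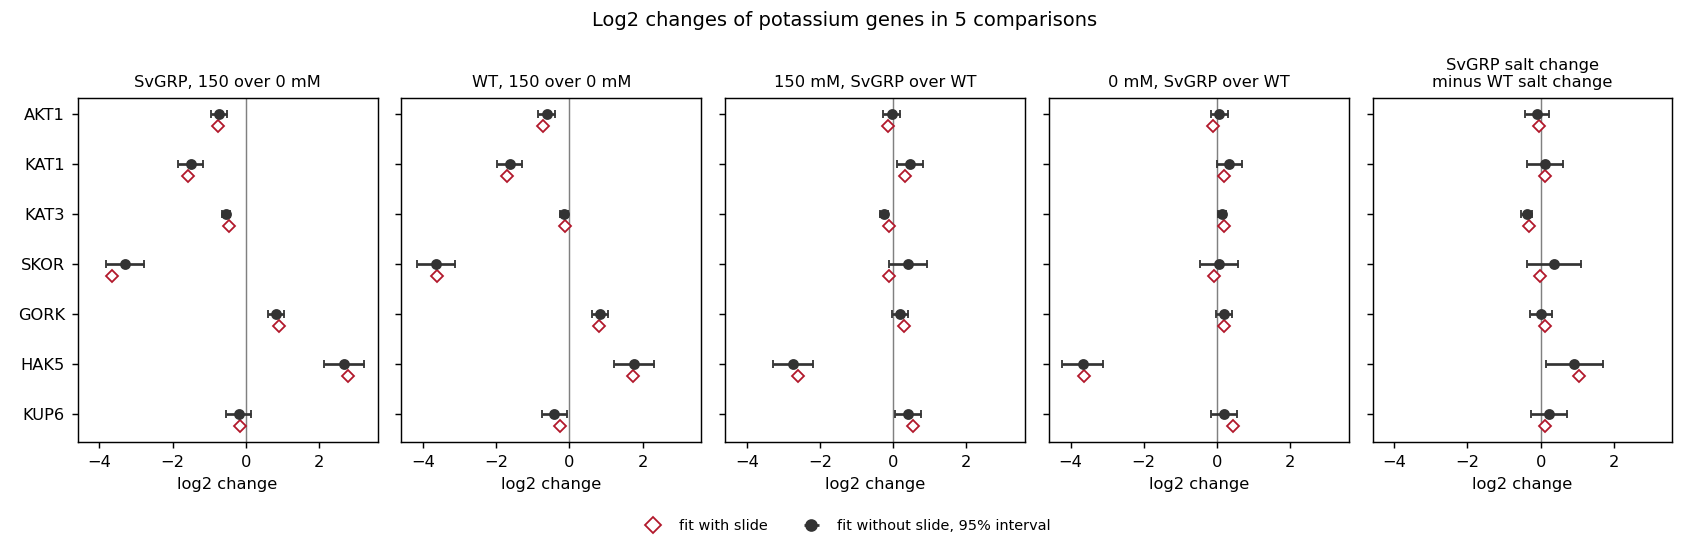
Log2 change of the 7 genes in 5 comparisons: salt in SvGRP, salt in WT, SvGRP over WT at 150 mM, SvGRP over WT at 0 mM, and the difference of the salt changes. Filled points with 95% intervals are from the fit without slide and open diamonds from the fit with slide; HAK5 stands apart in both genotype comparisons, at -2.75 and -3.67, and all other genotype changes lie between -0.25 and 0.46.

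The genotypes were then compared at each NaCl level. HAK5 was lower in SvGRP at both, 6.72-fold at 150 mM and 12.7-fold at 0 mM, whereas the other 6 genes differed by less than 1.5-fold. At 150 mM HAK5 had a change of -2.75 ± 0.25 (adjusted p = 1.0e-04) that stayed similar in size with slide in the fit but was then not called (-2.59, adjusted p = 0.064). At 0 mM HAK5 fell by 3.67 ± 0.25 (adjusted p = 2.5e-05) and was also called with slide in the fit (-3.64, adjusted p = 0.023). Among the 24543 genes above the 20th percentile on all arrays, 54 lay as far below WT at 150 mM and 12 at 0 mM. Both calls without slide remained when any 1 array was left out (highest adjusted p = 8.2e-04). Where a group spanned 2 slides, HAK5 in WT at 150 mM was lower by 0.03 on slide 1 than on slide 2, and in SvGRP at 0 mM lower by 0.17 on slide 3 than on slide 2. Each of these values rests on 1 array against 2, and for SKOR the difference between slides in SvGRP at 0 mM was 0.53. The part of slide in the genotype difference of HAK5 was not tested beyond the fit with slide.

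In counts, 2 of 7 genes were lower in SvGRP at 150 mM (HAK5 and KAT3), against 18.7% of all genes, and 1 was higher (KAT1), against 10.2% (28.9% in either direction). At 0 mM 1 of 7 was lower, against 10.8%, and 0 of 7 were higher by limma, against 10.5% (21.2% in either direction), with 1 (KAT3) higher at an unadjusted p under 0.05. HAK5 was the 1 of 7 at least 2-fold lower at each level, against 3.64% of all genes at 150 mM and 1.74% at 0 mM. With slide in the fit 0 of 7 were called at 150 mM, against 0.892% of all genes, with 1 at an unadjusted p under 0.05, and 1 (HAK5) at 0 mM, against 0.910%. KAT3 had a difference of -0.25 ± 0.05 at 150 mM (adjusted p = 0.0048), which became -0.12 with slide (adjusted p = 0.57) and -0.06 under spike-in scaling (adjusted p = 0.68). KAT1 was higher by 0.46 ± 0.16 at 150 mM (adjusted p = 0.049), a call lost when slide was a term (0.32, adjusted p = 0.67) and when any of 9 arrays was left out (at most adjusted p = 0.15). For SKOR the genotype difference was 0.41 at 150 mM (95% interval -0.11 to 0.93) and 0.05 at 0 mM (-0.47 to 0.57), and with slide both turned, to -0.11 and -0.08. For AKT1 it was -0.04 at 150 mM (-0.27 to 0.19; -0.15 with slide) and 0.06 at 0 mM (-0.17 to 0.29), which turned to -0.11 with slide. For GORK it was 0.19 at 150 mM (-0.02 to 0.41; 0.30 with slide) and 0.19 at 0 mM (-0.02 to 0.41; 0.18 with slide). For KUP6 it was 0.41 at 150 mM (0.06 to 0.75, adjusted p = 0.078; 0.55 with slide) and 0.19 at 0 mM (-0.16 to 0.54; 0.43 with slide). At 0 mM KAT1 differed by 0.34 (-0.01 to 0.68; 0.19 with slide) and KAT3 by 0.13 (0.02 to 0.24, adjusted p = 0.091; 0.20 with slide). With spike-in scaling the median of all genes lay at 0.34 at 0 mM. There 6 of 7 genes were called, HAK5 lower and AKT1, KAT1, KAT3, GORK and KUP6 higher by 0.37 to 0.65.

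The root hair, one of the cell types in which HAK5 and AKT1 act, was followed through 5 marker genes. In SvGRP against WT at 150 mM all 5 were lower, where 18.7% of all genes were, with a median change of -2.48. At 0 mM none of the 5 was called, against 21.2% of all genes, with a median of 0.02. HAK5 was lower at both NaCl levels. With slide in the fit none of the 5 markers was called at 150 mM and their median was -1.08. Their summed level was 0.223 to 0.574 in SvGRP at 150 mM, 0.629 to 1.29 in SvGRP at 0 mM, 1.73 to 2.05 in WT at 150 mM and 0.66 to 1.17 in WT at 0 mM. None was at 0. Under salt 3 of the 5 fell and 0 rose in SvGRP by limma (also 0 at an unadjusted p under 0.05; 1 fell with slide), with a median of -1.04 (-0.39 with slide), while HAK5 rose. In WT 3 of the 5 rose and 0 fell (also 0 at an unadjusted p under 0.05), with a median of 0.92 (0.82 with slide, where none was called), and HAK5 rose as well. Of all genes 37.8% fell under salt in SvGRP and 33.1% rose in WT. AKT1 had a genotype difference at 150 mM of -0.04 (0.15 with spike-in scaling). The part of root hairs in the HAK5 difference was not tested at either NaCl level.

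RAP2.11, a transcription factor that activates HAK5 when potassium is low, was at -5.50, -6.46 and -4.80 in SvGRP at 150 mM, against -3.64, -3.19 and -4.62 in SvGRP at 0 mM. In WT it was at -2.57, -2.45 and -2.46 at 150 mM, against -3.55, -4.11 and -2.99 at 0 mM. At 150 mM the genotypes were far apart, with RAP2.11 lower by 3.10 ± 0.46 in SvGRP (adjusted p = 0.0014; with slide -1.93, adjusted p = 0.30), and at 0 mM they overlapped (-0.27, adjusted p = 0.71). Under salt RAP2.11 fell by 1.77 ± 0.46 in SvGRP (adjusted p = 0.0065; with slide -0.97, adjusted p = 0.21), where HAK5 rose, and had a change of 1.06 ± 0.46 in WT (adjusted p = 0.070). Its salt changes differed by -2.83 ± 0.65 between the genotypes (adjusted p = 0.030), a call lost when any of 7 arrays was left out (at most adjusted p = 0.075) and when slide was a term (-1.94, adjusted p = 0.40).

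**Figure D3:**
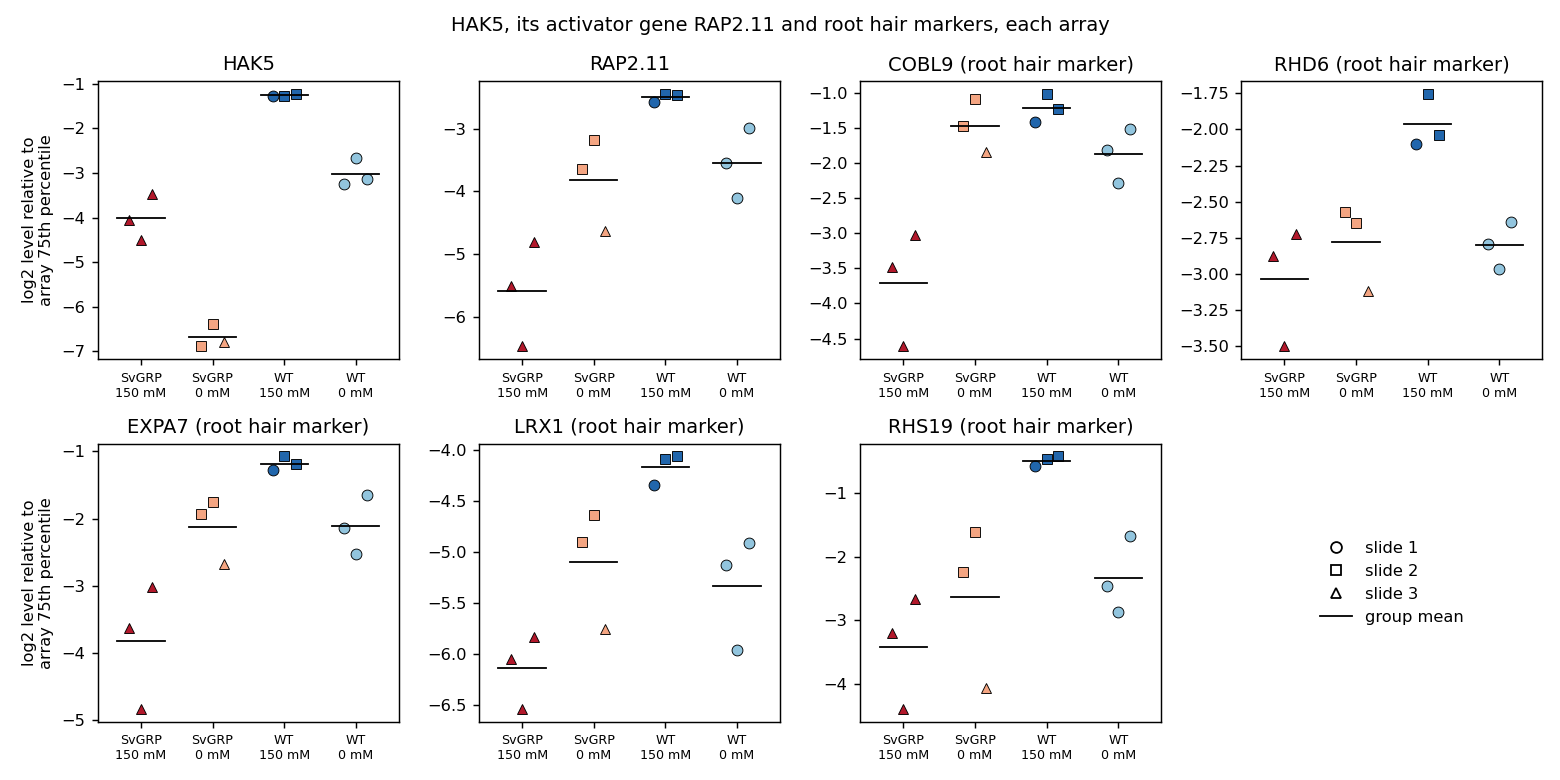
Level (log2 relative to the array's 75th percentile) of HAK5, of RAP2.11 and of 5 root hair markers on every array, with SvGRP at 150 and 0 mM left of WT at 150 and 0 mM; the point's shape gives the slide and the bar the mean of 3 arrays. HAK5 is lower in SvGRP than in WT with and without salt, while RAP2.11 and the markers overlap between genotypes at 0 mM and lie lower in SvGRP at 150 mM.

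Other genes of potassium transport were taken as a list of 40, of which 35 were measured. Under salt 9 of them rose and 19 fell in SvGRP, against 31.0% and 37.8% of all genes. In WT 12 rose and 15 fell, against 33.1% and 30.2%. The medians were -0.24 in SvGRP and -0.08 in WT. The 9 include TPK2 and the 12 include TPK2 and AKT5, genes below the 20th percentile throughout 1 or more groups. Among the other Shaker channels, the guard cell inward channel gene KAT2, the nearest relative of KAT1, fell by 1.62 ± 0.11 in SvGRP (adjusted p = 1.7e-06; -1.82 with slide) and by 1.02 ± 0.11 in WT (adjusted p = 4.3e-05; -0.94 with slide). AKT5 was below the 20th percentile on all WT arrays at 0 mM. Against these it was at least 2.09-fold higher in SvGRP at 0 mM (adjusted p = 0.0039, 0.19 with slide). In WT at 150 mM it was at least 1.71-fold higher (adjusted p = 0.0017, 0.027 with slide). AKT5 was then only 1.20 to 1.34 times the array's 20th percentile in WT at 150 mM, and 1.46 to 2.12 times in SvGRP at 0 mM. Both bounds rest on signals near the dim end and on 20th percentiles that ran from 14.1 to 27.6 over the arrays.

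Of the 11 other genes of the KUP/HAK/KT family, the relatives of HAK5 and KUP6, 4 rose and 6 fell under salt in SvGRP. In WT 4 rose and 3 fell, and none of these changes reached 2-fold in either genotype. The shares of all genes were 31.0% and 37.8% in SvGRP and 33.1% and 30.2% in WT. KUP1 and KUP11, singled out after their values were seen as the 2 of the 11 whose salt changes were called different between genotypes, went opposite ways: SvGRP minus WT was -0.45 ± 0.07 for KUP1 (adjusted p = 0.0094) and 0.45 ± 0.07 for KUP11 (adjusted p = 0.011), and neither was called with slide in the fit (adjusted p = 0.16 each). KUP8, singled out likewise as the 1 of the 11 called between genotypes at 0 mM, was higher there by 0.19 in SvGRP (adjusted p = 0.045, 0.47 with slide).

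Among 3 measured channels of the two-pore TPK family, TPK2 was below the 20th percentile on all SvGRP and WT arrays at 0 mM and was at least 2.66-fold higher in WT at 150 mM than in WT at 0 mM (adjusted p = 3.4e-05). On salt it was at 1.25, 0.80 and 1.23 times the array's 20th percentile in SvGRP, against 2.71, 1.87 and 1.51 times in WT, too near the dim end for a fold change. Of 8 potassium and cation exchangers 2 rose and 4 fell in SvGRP, against 31.0% and 37.8% of all genes. In WT 3 rose and 3 fell, against 33.1% and 30.2%. The chloroplast exchanger gene KEA1 fell by 1.84 ± 0.13 in SvGRP and by 1.74 ± 0.13 in WT (adjusted p = 2.1e-06 and 5.4e-06; -1.94 and -1.70 with slide). CHX17, a cation exchanger gene of roots, changed by -3.00 ± 0.18 in SvGRP and by -2.99 ± 0.18 in WT (adjusted p = 7.7e-07 and 1.6e-06; -2.94 and -3.15 with slide), close to SKOR in size.

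**Figure D4:**
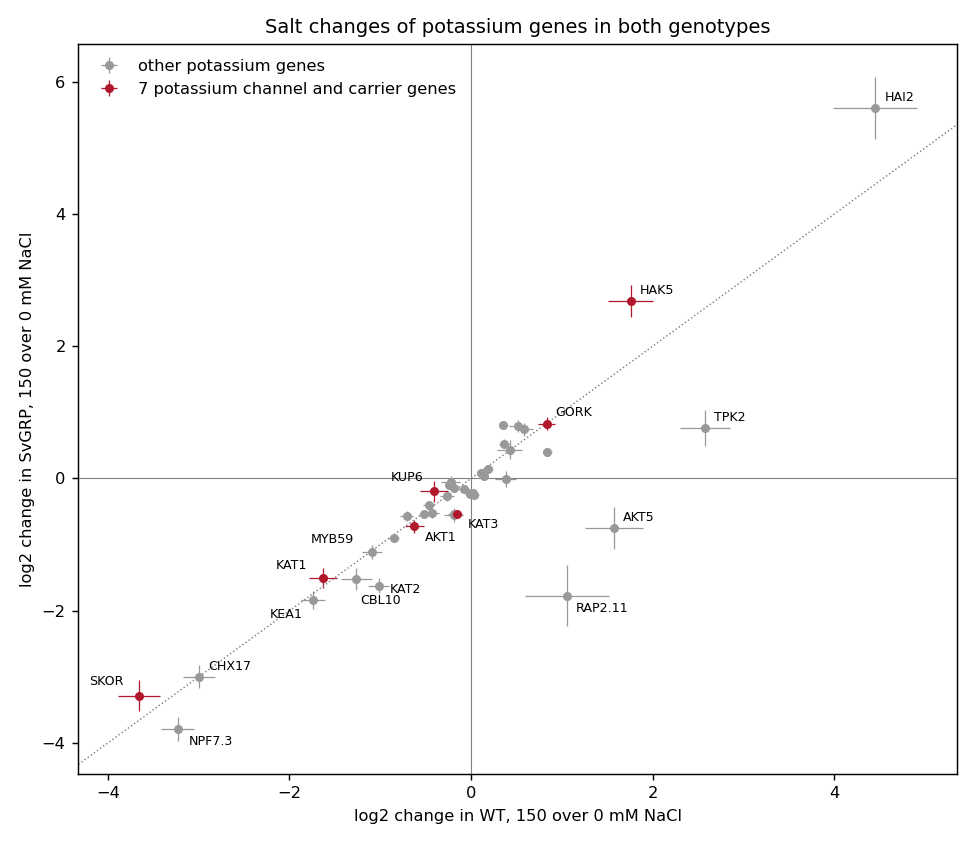
Salt change (log2, 150 over 0 mM NaCl) in SvGRP on the vertical axis and in WT on the horizontal axis for the 7 channel and carrier genes and 35 other potassium genes; bars are standard errors and the dotted line marks equal changes. SKOR, NPF7.3 and CHX17 lie at the low end in both genotypes and HAI2 at the high end. HAK5 is next to HAI2 in SvGRP and below the measured value of TPK2 in WT. AKT5 and RAP2.11 lie below 0 in SvGRP and above 0 in WT. TPK2 and AKT5 are plotted as measured, although they were dim in whole groups. The WT change of TPK2 is only bounded, at 1.41 or more, so its order with HAK5 is not settled.

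Of 11 genes for regulators of these transporters, 2 rose and 6 fell under salt in SvGRP, against 31.0% and 37.8% of all genes. In WT 3 rose and 6 fell, against 33.1% and 30.2%. HAI2, whose phosphatase is also known as AIP1 for its binding to AKT1, rose by 5.60 ± 0.46 in SvGRP (adjusted p = 4.3e-06; 6.56 with slide) and by 4.45 ± 0.46 in WT (adjusted p = 2.9e-05; 4.35 with slide). NPF7.3, a nitrate transporter that also loads potassium into the xylem, fell by 3.78 ± 0.18 in SvGRP and by 3.23 ± 0.18 in WT (adjusted p = 3.0e-07 and 1.3e-06; -3.98 and -3.29 with slide), beside SKOR with the same role. CBL10, a calcium sensor gene, fell by 1.52 ± 0.17 in SvGRP and by 1.26 ± 0.17 in WT, and MYB59, a transcription factor gene, fell by 1.11 ± 0.11 in SvGRP and by 1.09 ± 0.11 in WT (all called, also with slide in the fit). CIPK23, the kinase that activates AKT1 and HAK5, and the calcium sensors CBL1 and CBL9 that recruit it were singled out after their values were seen. CIPK23 fell by 0.90 ± 0.06 in SvGRP and by 0.85 ± 0.06 in WT, CBL9 fell by 0.40 and 0.47, and CBL1 rose by 0.79 and 0.52, all called, also with slide as a term.

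Between the genotypes, 8 of the 35 other potassium genes were higher and 5 lower in SvGRP at 150 mM, against 10.2% and 18.7% of all genes. At 0 mM 6 were higher and 0 lower by limma, against 10.5% and 10.8%, and 0 were lower at an unadjusted p under 0.05. With slide as a term 0 of 35 were called at 150 mM (9 at an unadjusted p under 0.05) and at 0 mM (5), where 0.892% and 0.910% of all genes were. HAK5 at 0 mM was the only one of the 42 measured potassium genes, members and list together, called between genotypes in that fit.

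For the 3 members that changed at least 2-fold, genes of like pattern were sought among 8135 genes with a symbol, by the root mean square difference of log2 levels over the 12 arrays after each gene was centred on its own mean. This is a description of these 12 arrays. Nearest to SKOR, whose own levels spread by 1.76 on this measure, were PEN1 (AT4G15340) at 0.21, IAA34 (AT1G15050) at 0.26 and the sodium transporter gene HKT1 (AT4G10310) at 0.33. Nearest to KAT1, with a spread of 0.83, were CIPK20 (AT5G45820) and CYP78A6 (AT2G46660) at 0.16 each and ATGA2OX1 (AT1G78440) at 0.17. Nearest to HAK5, with a spread of 1.98, were the cold- and clock-regulated COR27 (AT5G42900) at 0.495, NAC036 (AT2G17040) at 0.62 and JAL23 (AT2G39330) at 0.68. Chosen for this likeness, their levels in SvGRP at 0 mM relative to WT were -4.31 (COR27), -2.51 (NAC036) and -3.70 (JAL23). In the same order their salt changes were 0.56, 1.81 and 1.77 in WT, against 1.76 for HAK5. In SvGRP they were 2.56, 1.97 and 1.66, against 2.68 for HAK5. The likeness is thus loose, and these values are a description with no test.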

How the data were processed

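RNA of whole seedlings was hybridised to 12 one-colour (Cy3) Agilent arrays, 3 in each of 4 groups taken from the labels. Per the file headers, the deposited intensity of each probe is the scanner software's processed signal on a linear scale; Agilent Feature Extraction is named in the submitters' processing notes, its version was not stated, and the files used here hold no background columns or flags. For the same arrays the authors also deposited a table of log2 values, which a check of the values showed to be log2 intensity minus each array's 75th percentile, centred on each probe's median (largest absolute difference 0.000213); it served as an alternative.

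Each array held 43663 values. After 60 control values were left out, 43603 probes remained, of which 32265 were named through accessions, 1319 through locus tags and 714 through symbols of the platform annotation updated with RefSeq (TAIR10.1), while 46 found no match and 9259 were not listed. Signals were scaled to the array's 75th percentile and put on the log2 scale. Probes above their array's 20th percentile throughout 1 or more groups were kept (35454 probes), and each gene was read from its probe of highest mean. All 7 measured members passed this filter. Groups were compared with limma 3.58.1 (R 4.3.3; lmFit and eBayes, 8 residual degrees of freedom, all 4 groups in the fit), with Benjamini-Hochberg adjustment over 26799 tests. The 5 comparisons were salt in each genotype, genotype at each NaCl level and the interaction. Comparisons share groups, so they are not independent. Where all arrays of a group lay below the 20th percentile, the difference is a bound: the bright group's mean against, per array, the higher of the 20th percentile and the dim probe's own value. The steps were tested on simulated data.

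Alternatives were another scaling (quantile, median, E1A spike-in probes), the authors' table, other dim filters, slide as a fixed or random block, replicate number as a block, only the groups compared, each array left out, mean over probes, a trended robust variance, and a 2-fold minimum. The files' columns allowed no other background correction. The members, gene lists and markers were chosen with earlier results of these data known. Genes named by rule were the members, up to 3 called genes with the largest change of at least 2-fold per list and comparison, and the 3 genes nearest in pattern to each member that changed at least 2-fold; the text says where other genes were singled out after their values were seen. AKT2 and the transgene are not analysed here.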

Additional observations from a re-analysis of the deposited data

Results flagged for a closer look

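The salt change of KAT3 was called different between the genotypes by limma's interaction term: SvGRP minus WT was -0.38 on the log2 scale (-0.379, adjusted p = 0.014), from a change of -0.53 in SvGRP and -0.15 in WT. With slide it was -0.32 (adjusted p = 0.22), and under spike-in scaling it was -0.50 (adjusted p = 0.070). The interaction term was the test of this difference, and 8.97% of all genes were called by it.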

How the results depend on the processing

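Over 35 pairs of gene and comparison, 371 of 413 alternatives and 385 of 420 fits without 1 array kept the direction and the side of the threshold. The alternatives include the authors' table, which differs from the main scale by a constant per probe and so could not turn a direction. Other dim filters changed mainly which genes entered the fit. The share kept is therefore not an independent measure of robustness. The number of the 7 genes called was 6 for salt in SvGRP, 7 for salt in WT, 3 for SvGRP over WT at 150 mM, 1 at 0 mM and 1 for the interaction. With a 2-fold minimum it was 3, 3, 1, 1 and 0 in that order. With spike-in scaling it was 4 for salt in WT, 6 at 0 mM and 0 for the interaction. With slide as a fixed block it was 0 at 150 mM and 0 for the interaction; with slide as a random block (estimated correlation -0.165) it was 5 at 150 mM, 3 at 0 mM and 2 for the interaction. A negative correlation cannot stand for a spread between slides, so the random-block counts are not a correction for slide. With only the groups compared in the fit the number called was 3 at 0 mM. Without 1 array it was 1 to 2 there (2 without SvGRP at 150 mM replicate 1).

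These directions turned. AKT1 at 150 mM was 0.03 with median scaling (0.027), 0.15 with spike-in scaling (0.152) and -0.11 to 0.09 without 1 array; AKT1 at 0 mM was -0.11 with slide. Spike-in scaling gave 0.22 for KAT3 under salt in WT and 0.05 (0.053) for KUP6 under salt in SvGRP. With slide SKOR was -0.11 (-0.105) at 150 mM, where it was 0.41 without, -0.084 at 0 mM and -0.021 for the interaction, which was 0.37 without, and without 1 array -0.13 to 0.19 at 0 mM. The GORK interaction was 0.05 with quantile normalization, 0.07 (0.068) with median scaling, 0.12 with slide and -0.08 to 0.10 (0.095) without 1 array. Without 1 array the interaction was -0.17 to 0.03 (0.028) for AKT1 and -0.07 to 0.23 for KAT1. SKOR at 150 mM was called without SvGRP at 150 mM replicate 2 (0.67, adjusted p = 0.039). The cause was not tested.

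With the replicate number as a block, KAT1 at 150 mM (0.46, adjusted p = 0.071) and KUP6 under salt in WT (-0.41, adjusted p = 0.070) were no longer called, no other call among the 7 genes changed, and the counts were 6, 6, 2, 1 and 1. The samples share only a number: deviations from the group mean correlated over 0.1 in 2 of 18 same-numbered pairs (-0.183 to 0.215). Signal limits AKT5 and TPK2, which lay below the 20th percentile in whole groups, and HAK5 in SvGRP at 0 mM lay near it. At each NaCl level the genotypes lay on different slides.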
